A study of Mus musculus with 2 samples.

Results

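Wide promoter regions are accessible regions of at least 2000 bp that lie at protein-coding start sites in mouse regulatory T cells. Members were regions of replicate 1 that were 2000 bp or wider, overlapped a region of replicate 2 that was also 2000 bp or wider, and had their midpoint within 1 kb of a protein-coding start site (GENCODE M21, mm10). They number 817 of the 68832 regions of replicate 1 on chromosomes 1 to 19, X and Y (1.19%). The comparison set is the 13044 narrower promoter regions, which met the same distance rule and overlapped any region of replicate 2, so that 5.89% of the 13861 replicated promoter regions were wide. The width and distance rules together mean that every member contains a start site, so this is no finding. Narrower regions need not, and 1212 of them (9.29%) contained none. Members were chosen by their widths in the 2 lists, so the widths below are a description with no test.

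ATAC-seq maps open chromatin by the places where a transposase can insert, and was performed on primary regulatory T cells of C57BL/6NJ mice. There was 1 group with 2 libraries, labelled biological replicates 1 and 2. Both name the same donor, so nothing shows that they came from different animals, and their spread may be technical. The region names carry the time 72 hours and the terms ASTARR and insert, neither of which the sources used here explain. No untreated cells or other cell types were analysed here, and no test was made: regions and genes are not replicates. Widths of named genes are given for both libraries. Other values take replicate 1 regions as the base unless replicate 2 or both libraries are named.

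Most promoters are open over a short stretch at the start site, where the transcription machinery and sequence-specific factors displace nucleosomes. Many mammalian promoters lie in CpG islands, stretches rich in the dinucleotide CG that usually stay unmethylated. Regulatory T cells are the CD4 T cells that restrain immune responses, and the factor FOXP3 defines them.

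Sequences around the replicate 1 summit, the position of highest signal in a region, give examples of the CpG content of wide regions. Each was read from the RefSeq GRCm38.p6 (mm10) genome, contains no annotated exon, is written 5′ to 3′ in the direction of the gene, and has each CpG in capitals. The first 7 are at members among the widest: Ubtf at chr11:102316992-102317173 on the minus strand (20 CpG in 182 bp), Midn at chr10:80149403-80149602 on the plus strand (18 CpG), Ptma at chr1:86526430-86526629 on the plus strand (22 CpG), Socs2 at chr10:95416892-95417091 on the minus strand (17 CpG), Jun at chr4:95052223-95052323 on the minus strand (6 CpG), Ccnd2 at chr6:127152504-127152703 on the minus strand (9 CpG) and Arhgef2 at chr3:88620124-88620323 on the plus strand (3 CpG). Gm11168, at chr9:3002331-3002460 on the plus strand, is the widest member and stands for the 4 members made of repeats (1 CpG in 130 bp). Il2ra at chr2:11642576-11642775 on the plus strand (3 CpG) and Ccr4 at chr9:114496563-114496727 on the minus strand (1 CpG in 165 bp) are members that touch no CpG island. Lck, at chr4:129573642-129573834 on the minus strand (0 CpG in 193 bp), and Cd3e, at chr9:45009628-45009729 on the minus strand (5 CpG in 102 bp), are narrower promoters. These last 4 were chosen after their values were seen. Both narrower windows are below the median of narrower regions, which was 8.46 CpG per 100 bp within 100 bp of the summit, against 9.45 in members.
Ubtf: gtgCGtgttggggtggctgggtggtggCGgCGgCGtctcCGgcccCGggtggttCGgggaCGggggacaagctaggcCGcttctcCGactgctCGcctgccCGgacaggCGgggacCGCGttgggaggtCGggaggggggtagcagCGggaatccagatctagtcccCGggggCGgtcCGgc
Midn: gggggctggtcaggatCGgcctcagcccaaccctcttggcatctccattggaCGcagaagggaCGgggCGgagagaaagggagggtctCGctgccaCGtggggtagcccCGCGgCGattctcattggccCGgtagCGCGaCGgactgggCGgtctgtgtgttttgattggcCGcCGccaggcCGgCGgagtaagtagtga
Ptma: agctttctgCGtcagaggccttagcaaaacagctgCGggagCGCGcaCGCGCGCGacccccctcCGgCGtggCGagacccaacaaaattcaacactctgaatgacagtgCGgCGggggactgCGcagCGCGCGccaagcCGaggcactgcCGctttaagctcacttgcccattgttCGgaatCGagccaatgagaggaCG
Socs2: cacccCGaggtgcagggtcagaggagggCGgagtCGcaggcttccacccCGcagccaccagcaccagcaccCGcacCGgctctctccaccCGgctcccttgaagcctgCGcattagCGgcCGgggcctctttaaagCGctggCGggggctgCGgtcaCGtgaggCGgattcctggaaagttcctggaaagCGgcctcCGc
Jun: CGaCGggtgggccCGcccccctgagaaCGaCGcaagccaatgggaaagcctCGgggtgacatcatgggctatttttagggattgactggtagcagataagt
Ccnd2: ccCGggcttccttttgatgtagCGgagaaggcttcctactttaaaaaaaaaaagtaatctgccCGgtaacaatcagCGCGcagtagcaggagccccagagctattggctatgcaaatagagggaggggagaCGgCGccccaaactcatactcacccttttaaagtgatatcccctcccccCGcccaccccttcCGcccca
Arhgef2: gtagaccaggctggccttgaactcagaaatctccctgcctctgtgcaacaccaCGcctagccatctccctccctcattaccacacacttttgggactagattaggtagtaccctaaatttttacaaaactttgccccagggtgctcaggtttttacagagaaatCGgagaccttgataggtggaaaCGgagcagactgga
Gm11168: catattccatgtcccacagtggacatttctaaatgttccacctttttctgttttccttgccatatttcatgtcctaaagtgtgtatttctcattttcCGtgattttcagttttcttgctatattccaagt
Il2ra: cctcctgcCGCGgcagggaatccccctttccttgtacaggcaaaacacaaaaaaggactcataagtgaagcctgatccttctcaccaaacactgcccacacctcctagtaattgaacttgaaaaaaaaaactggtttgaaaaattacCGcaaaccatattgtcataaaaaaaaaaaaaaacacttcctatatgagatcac
Ccr4: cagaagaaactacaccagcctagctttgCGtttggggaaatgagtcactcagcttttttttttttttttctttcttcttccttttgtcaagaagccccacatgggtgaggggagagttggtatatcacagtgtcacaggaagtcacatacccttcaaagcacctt
Lck: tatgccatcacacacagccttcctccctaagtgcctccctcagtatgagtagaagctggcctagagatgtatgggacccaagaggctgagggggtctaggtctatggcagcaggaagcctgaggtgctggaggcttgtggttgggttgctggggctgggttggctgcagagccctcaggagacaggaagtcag
Cd3e: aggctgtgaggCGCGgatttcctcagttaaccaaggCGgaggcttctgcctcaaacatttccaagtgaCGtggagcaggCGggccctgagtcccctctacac
The printed windows of wide members, which differ in length, thus run from 22 CpG for Ptma to 1 for Gm11168 and Ccr4. The Arhgef2 window holds as many as that of Il2ra. The Zfp827 window, not printed, holds 26 CpG. Over all members the density within 100 bp of the replicate 1 summit ran from 0 to 22.4 CpG per 100 bp.

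The 817 members had a median width of 2290 bp in replicate 1 (quartiles 2123 and 2542) and 2341 bp in replicate 2 (2167 and 2634). Narrower promoter regions had medians of 1133 and 1211 bp. Most members lay close to the minimum, since 504 were under 2500 bp in both libraries and 50 reached 3000 bp in both. Just inside the minimum were Gch1 (2000 bp in replicate 1 and 2003 bp in replicate 2), Mllt10 (2000 and 2052 bp) and Arhgap21 (2000 and 2029 bp). Just outside it were Lrp4 (1999 and 2073 bp) and Hmgn2 (1999 and 2061 bp), so the widths run through the minimum without a gap.

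The edges of the members lay in nearly the same place in both libraries. Left edges differed by a median of 30 bp and right edges by 30 bp, against 37 and 38 bp in narrower regions. The widths of members differed by a median of 58 bp, and 91.1% of members had widths within 10% of each other. Members had to be wide in both lists, so part of this agreement in width is set by the rule. Replicate 2 gave the wider region for 570 members (69.8%). A further 80 promoter regions were wide in replicate 1 and were overlapped in replicate 2 by narrower regions alone, and in 29 of these the stretch was split over more than 1 region of replicate 2. Another 393 were under 2000 bp in replicate 1 and had a wide region in replicate 2, which covered more than 1 region of replicate 1 in 154. Taking replicate 2 as the base gave 820 wide promoter regions in place of 817, and 901 genes were found from either base.

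**Figure D1:**
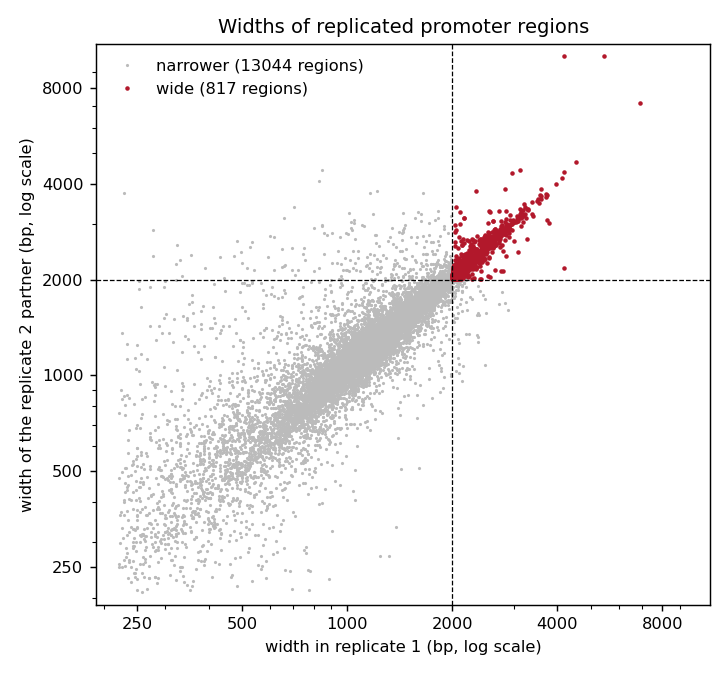
Width of each replicated promoter region in replicate 1 (x axis, bp, log scale) against its replicate 2 partner (y axis, bp, log scale), with 1 point a region and dashed lines at 2000 bp. The 817 wide regions (red) fill the upper right corner, and the 3 points highest in replicate 2 are repeat regions of chromosome 9.

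Among the 15 widest members were genes for regulators of transcription, signalling and the cell cycle. Zmiz1, a transcriptional coregulator, had the widest region outside repeats, at chr14:25457587-25462105, with 4519 bp in replicate 1 and 4699 bp in replicate 2. Ubtf, which directs ribosomal RNA gene transcription, followed with 4175 and 4370 bp. Brd2, a reader of acetylated histones, had 4123 and 4179 bp. Patz1, a zinc finger regulator, had 3957 and 3980 bp. Both libraries thus place each of these regions near or above 4 kb.

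Midn, which delivers nuclear proteins to the proteasome, had 3712 and 3716 bp. Ptma, the small acidic chromatin protein prothymosin alpha, had 3727 and 3686 bp, and Zfp827, a zinc finger gene, had 3709 and 3636 bp. Jun, a subunit of the activation factor AP-1, had 3593 bp at chr4:95050350-95053942 in replicate 1 and 3839 bp in replicate 2. Socs2, a feedback inhibitor of cytokine receptors, had 3590 and 3657 bp. The partners Cdk6 (3598 and 3571 bp) and Ccnd2 (3566 and 3684 bp) encode a kinase and a cyclin that drive entry into the cell cycle. Arhgef2, an activator of the small GTPase RhoA, had 3521 and 3587 bp.

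The widths of 5 members differed most between the libraries. Pdgfb, a growth factor gene, had 4194 bp in replicate 1 and 2173 bp in replicate 2, where 2 regions lay under the replicate 1 region. Jade2, a subunit of a histone acetyltransferase complex, had 2345 and 3805 bp, and Gadd45b, a stress and differentiation gene, had 2969 and 4323 bp. The other 2 were both assigned to Gm10717.

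A set of 4 members stood apart from the rest in sequence, all at the proximal end of chromosome 9 and 95.4% to 96.6% repeat bases. Gm11168 spanned 6912 bp in replicate 1 and 7166 bp in replicate 2, and Gm10719 spanned 2622 and 2588 bp. The 2 regions at Gm10717 spanned 5447 and 4186 bp in replicate 1 and shared a single partner of 10118 bp in replicate 2. The GC content around their start sites was 34.9% to 35.6%, and none touched a CpG island. Among the other 813 members the highest repeat share was 34.0%, the widest region was 4519 bp in replicate 1, and the median width stayed at 2290 bp. Reads from such copies can map to more than one place, and the sources used here do not say how the authors placed them.

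**Figure D2:**
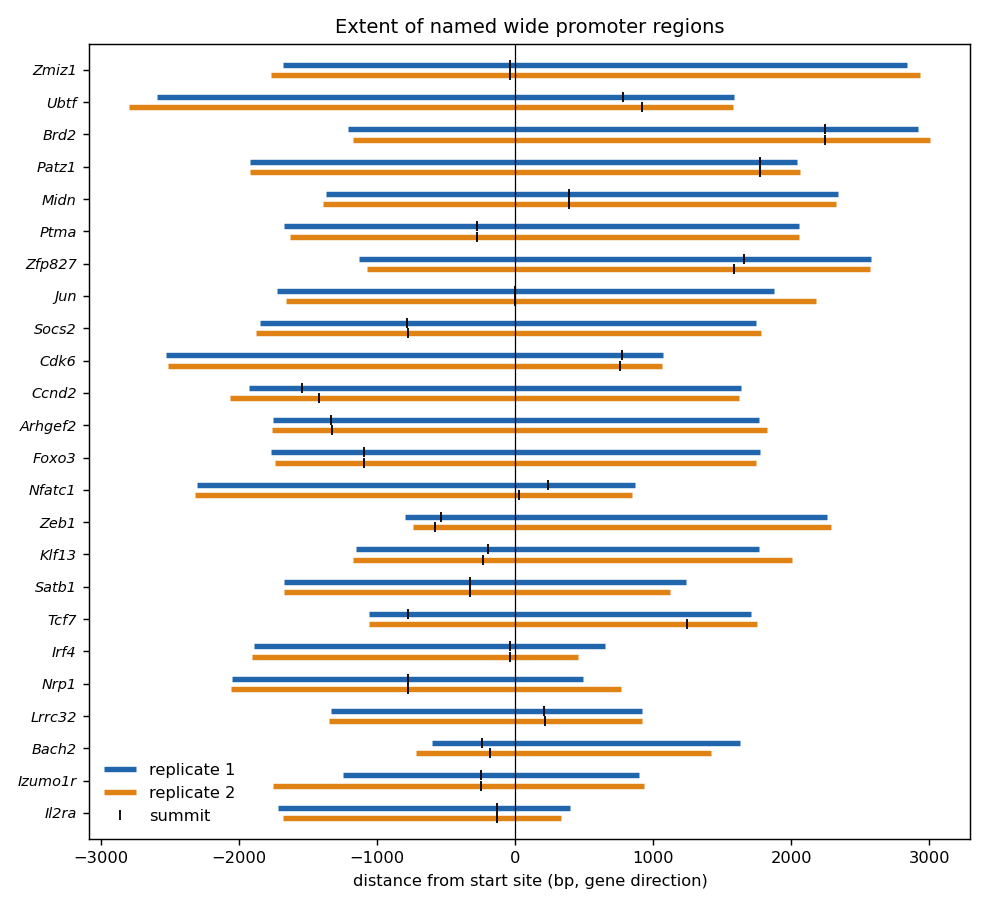
Extent of 24 named members in replicate 1 (blue) and replicate 2 (orange) relative to the start site nearest the region's midpoint (x axis, bp in the direction of the gene), with a tick at each summit. The edges of the 2 bars nearly coincide for most genes, and summits of Brd2, Patz1, Zfp827, Ccnd2, Arhgef2 and Foxo3 lie over 1 kb from that start site.

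Wide regions reached far on either side of the start site. From the start site nearest the midpoint, the median reach was 1059 bp upstream and 1283 bp downstream, against 493 and 630 bp for narrower regions. More than 1 kb downstream was covered in 619 members (75.8%), more than 1 kb upstream in 455 (55.7%), and both in 257 (31.5%). The width minimum and the distance rule set much of this reach, so it is a description of the members' shape. The downstream side was the longer in 60.2% of members and in 63.4% of narrower regions.

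Summits lay further from the start site in wide regions. The summit was over 500 bp from the start site in 260 members (31.8%) and in 1367 narrower regions (10.5%), and with replicate 2 as the base the shares were 33.2% and 10.6%. A wider region leaves more room for a distant summit. The position itself was repeatable, because the summits of the 2 libraries lay a median of 11 bp apart in members and 13 bp apart in narrower regions. In Brd2 the summit lay 2242 bp downstream in both libraries and in Patz1 1775 bp downstream in both. In Tcf7 the libraries placed it on opposite sides of the start site.

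Genes with wide promoter regions had more start sites and longer first introns. More than 1 annotated start site lay in 68.4% of members and in 51.5% of narrower regions, a count that rises with the width searched. Measures of the gene that do not depend on the region's width were higher as well. The gene had a median of 3 annotated start sites in members and 2 in narrower regions. The median first intron was 6000 bp (5999.5) against 3706 bp, and the median gene was 36988 bp long against 26535 bp. Divergent pairs, with start sites on both strands, made up 82 members (10.04%) and 894 narrower regions (6.85%). A whole protein-coding gene fitted inside 15 members (1.84%) and 55 narrower regions (0.422%). A wider region has more room for a divergent pair or a whole gene, so these shares can rise with width.

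The members' start sites were richer in G, C and CpG than those of narrower regions. Within 500 bp of the start site, a window that does not depend on width, median GC content was 64.9% in members (quartiles 59.0% and 70.7%) and 59.2% in narrower regions (54.2% and 64.4%). With replicate 2 as the base the medians were 65.1% and 59.2%. CpG density had medians of 8.49 and 6.09 per 100 bp, and the observed CpG count relative to that expected from base composition had medians of 0.812 and 0.71. The quartiles overlap, so many narrower promoters are as rich as a typical member.

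The CpG profile was broader rather than much higher. At 150 bp downstream of the start site, members averaged 9.61 CpG per 100 bp and narrower regions 8.27. At 950 bp upstream the averages were 3.42 and 1.501, and at 1050 bp downstream 4.08 and 1.92. By 2450 bp upstream they were 1.24 and 1.11. Over the whole region, GC content was close, with medians of 60.1% in members and 59.0% in narrower regions.

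**Figure D3:**
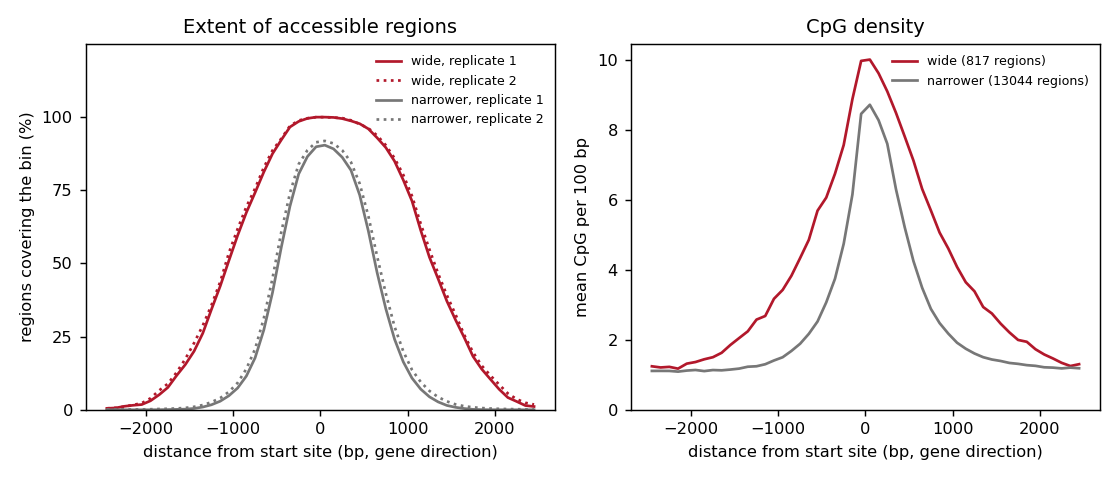
Share of regions that cover each 100 bp bin (left, percent) and mean CpG per 100 bp (right) by distance from the start site (x axis, bp in the direction of the gene), for wide (red) and narrower (grey) promoter regions, with replicate 2 dotted on the left. CpG density at 950 bp upstream averaged 3.42 in wide and 1.501 in narrower regions.

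The islands touched by wide regions were longer than those touched by narrower regions. An island here is a union of 200 bp windows with GC content above 50% and an observed to expected CpG ratio above 0.6, found within 3 kb of the start site. Members touched an island in 95.3% of cases and narrower regions in 88.0%, and the longest island touched had a median length of 1467 bp against 882.5 bp. Islands of 1500 bp or more were touched by 397 members (48.6%) and by 11.5% of narrower regions, and islands of 2000 bp or more by 25.6% and 2.77%. A wider region can touch more islands, which makes these shares partly a result of width.

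The share of promoter regions that were wide was higher at islands above 1000 bp. It was 2.37% without an island (38 of 1605), 2.88% at islands under 500 bp (36 of 1250), 2.37% at islands of 500 to 1000 bp (124 of 5230), 5.72% at 1000 to 1500 bp (222 of 3883), 14.2% at 1500 to 2000 bp (188 of 1323) and 36.1% at 2000 to 3000 bp (181 of 502). Above 3000 bp it was 41.2% (28 of 68). By GC content around the start site, the share went from 2.50% below 45% GC (12 of 480) to 18.5% at 70% GC or more (239 of 1293). With replicate 2 as the base the shares in the lowest and highest GC class were 2.36% and 18.4%. Most promoters at islands of 2000 to 3000 bp were still narrower than 2000 bp in at least 1 library.

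**Figure D4:**
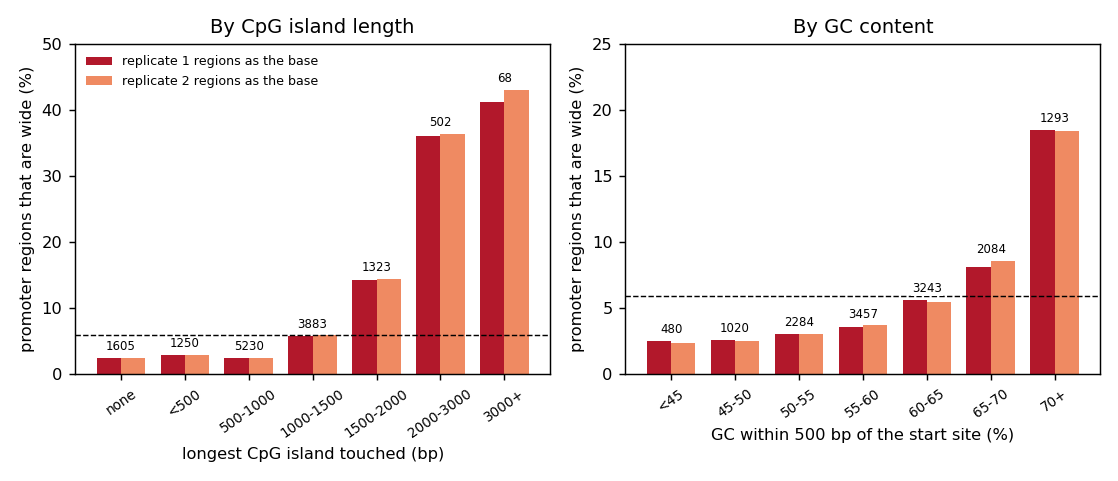
Share of replicated promoter regions that were wide (y axis, percent) by the length of the longest CpG island touched (left, bp) and by GC content within 500 bp of the start site (right, percent), with replicate 1 (red) or replicate 2 (orange) regions as the base. Numbers above the bars count replicate 1 regions, the dashed line marks the 5.89% of all promoter regions, and the share is 2.37% without an island and 41.2% at islands of 3000 bp or more.

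At the GC-rich end stood Dnmt3a, a DNA methyltransferase, with 82.2% GC and 16.5 CpG per 100 bp. Its region measured 2471 and 2552 bp. Kcmf1, a ubiquitin ligase gene (81.8% GC), Atxn2, an RNA-binding protein gene (80.7%), Nsd2, a histone methyltransferase gene (80.02%), and Pds5a, a cohesin regulator (79.5%), followed. At the GC-poor end, apart from the 4 repeat members, was Oxr1, an oxidation resistance gene, with 36.4% GC and 0.699 CpG per 100 bp and widths of 2123 and 2024 bp.

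There were 38 members that touched no island, of which 4 were the repeat members. The other 34 had a median width of 2276.5 bp in replicate 1, against 658 bp for narrower regions without an island. Those described here are also in the gene lists below. Il2ra, the high-affinity subunit of the interleukin 2 receptor, had 2111 bp at chr2:11641093-11643203 in replicate 1 and 2013 bp in replicate 2, with 46.1% GC. Ccr4, a chemokine receptor, had 2489 and 2500 bp. Irf4, an activation-induced transcription factor, had 2546 and 2356 bp, and Zbtb7b, which fixes the CD4 lineage in the thymus, had 2466 and 2714 bp. As the printed windows show, a summit of this kind can hold as few as 1 to 3 CpG.

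The authors' signal value was lower at wide than at narrower promoter regions, while their significance value had close medians over all regions. Each region's signal was ranked within its own list, and the median percentile was 62.0 in replicate 1 and 65.6 in replicate 2 for members, against 79.5 and 81.4 for narrower regions. By -log10 q the median percentiles were 85.9 and 87.7 against 84.5 and 86.4. These values come from the lists that gave the widths, so they describe the members and support nothing about them. The gap in signal depended on the island. At islands of 1000 to 1500 bp members had median signal percentiles of 63.3 and 66.9 against 84.7 and 85.7, and at islands of 2000 bp or more 61.4 and 65.2 against 60.2 and 64.96. In the first of these island classes the median -log10 q percentiles were 87.0 and 88.7 in members against 90.4 and 91.4 in narrower regions. In the second they were 86.3 and 89.0 against 74.0 and 78.8. Members were also higher at islands under 1000 bp or none (83.1 and 84.7 against 80.5 and 82.9). They were lower at 1500 to 2000 bp (87.4 and 88.5 against 89.9 and 90.9), so the order did not follow island length. Tcf7 and Zbtb7b had wide regions with low signal, at percentiles 29.4 and 18.6 for Tcf7 and 12.8 and 15.5 for Zbtb7b in replicates 1 and 2. The sources used here do not say what the signal is relative to.

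Some short motif letters near the summit were more frequent in one class, and the differences were not tested. Both strands were searched up to 100 bp from the replicate 1 summit, so that the window was equally long in every region, and the KLF/SP and EGR letters can overlap. The KLF/SP letters GGGCGGGG were present in 30.4% of members, 24.2% of narrower regions and 24.6% of all promoter regions. At islands of 1500 bp or more the KLF/SP shares were 32.5% of members and 29.7% of narrower regions. The ETS letters CCGGAAGT were present in 3.18%, 6.03% and 5.87%, but among regions at islands of 1500 bp or more in 3.02% of members and 2.21% of narrower regions. The EGR letters GCGTGGGCG were in 1.84% of members, 0.912% of narrower regions and 0.967% of all, and at islands of 1500 bp or more in 1.51% of members and 1.34% of narrower regions. The AP-1 letters TGANTCA were in 3.18% of members, 4.82% of narrower regions and 4.73% of all, and the NFAT letters GGAAAAT in 2.20%, 1.56% and 1.59%. At islands of 1500 bp or more AP-1 letters were in 2.52% of members and 1.94% of narrower regions, and NFAT letters in 1.01% and 0.869%. From replicate 2 summits at such islands the shares were 2.02% and 2.03% for AP-1, and 0.756% and 0.811% for NFAT. The forkhead letters TGTTTAC were in 1.47% of members and 1.24% of narrower regions, and 1.26% of all. A match of letters is a description and not a binding site.

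The members lay within 1 kb of start sites of 908 genes, 6.71% of the 13534 protein-coding genes with a replicated promoter region. Counting replicate 1 alone the share was 7.29%, and counting replicate 2 alone 9.24%. A gene with a replicated promoter region is called open below. Lists of genes by role were read against these shares, and against the shares among genes at islands of 1500 bp or more (21.7%) and among genes at shorter islands or none (4.10%). Of 760 symbols in 27 lists, 758 matched. An open promoter is not a measure of expression.

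**Figure D5:**
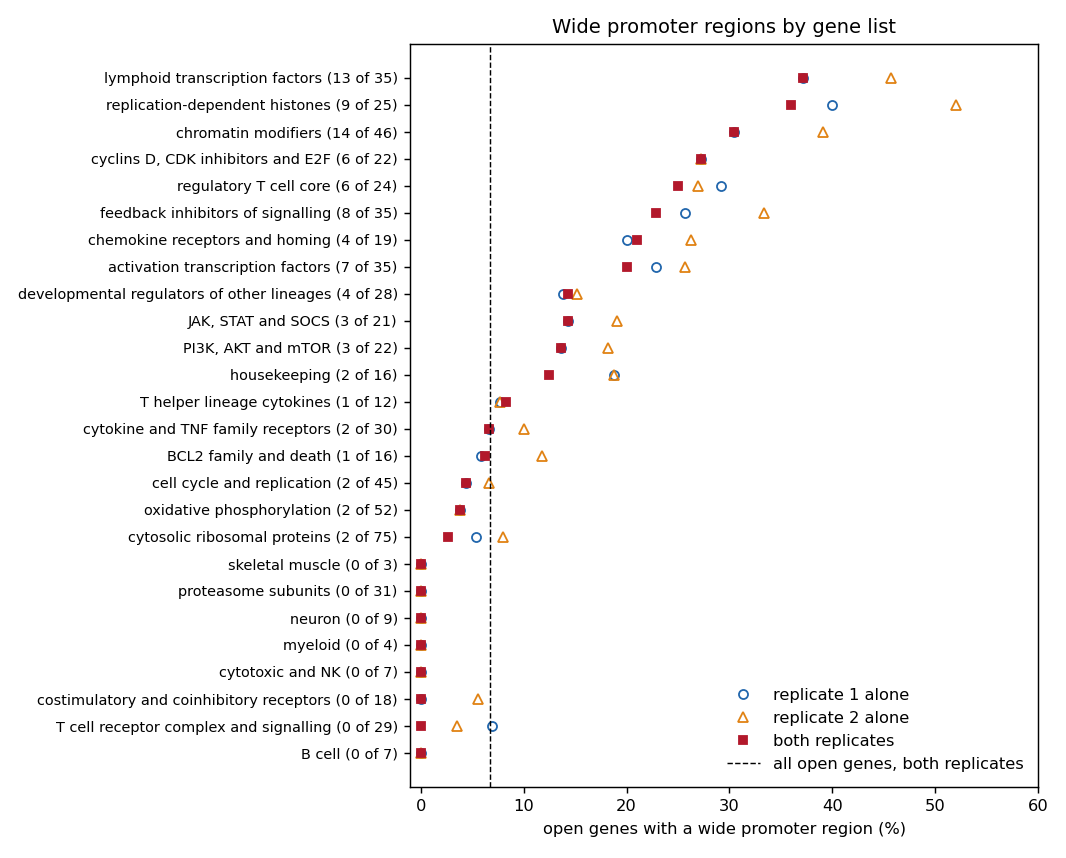
Share of each list's open genes that had a wide promoter region (x axis, percent) in both replicates (red squares, counts beside the names), in replicate 1 alone (blue circles) and in replicate 2 alone (orange triangles). The dashed line marks 6.71% of all open genes. Lymphoid transcription factors (13 of 35) and histone genes (9 of 25) are at the top, and T cell receptor, costimulatory and proteasome genes have no wide region in both replicates.

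Transcription factors of the lymphoid lineage and histone genes had the highest shares of wide regions among the lists, the former ahead in the count over both libraries and the latter in each library alone. Of 35 open lymphoid factor genes 13 had a wide region (37.1%), with 13 in replicate 1 alone and 16 in replicate 2 alone. Their islands were long, since 21 of the 35 were at islands of 1500 bp or more, and 9 of those 21 were wide, as were 4 of the other 14. Foxo3, a forkhead factor active in resting lymphocytes, had 3542 and 3483 bp. Zeb1, a zinc finger repressor, had 3054 and 3026 bp, and Klf13 had 2920 and 3180 bp. Tcf7 and Lef1, the paired T cell factors of the Wnt pathway, had 2763 and 2811 bp and 2259 and 2591 bp. All 5 were wide in both libraries by at least 200 bp.

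The lymphoid list also held Satb1, Zbtb7a, Zbtb7b, Gfi1, Ikzf1, Tox, Bach2 and Runx1 among its wide genes. Zbtb7a, a relative of Zbtb7b, had 2735 and 2865 bp. Gfi1, a repressor of lymphocyte genes, had 2047 and 3385 bp and so depends on replicate 1 being just above the minimum. Ikzf1, which encodes Ikaros, had 2322 and 2305 bp, Tox 2299 and 2544 bp, and Runx1, a core T cell factor, 2207 and 2236 bp. Some relatives of these genes, picked after their values were seen, were narrower in both libraries. Runx3 had 1893 and 1905 bp, Foxo1 1637 and 1706 bp, and Ikzf3 1602 and 1245 bp.

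Transcription factors induced by activation were wide in 7 of 35 open genes, with 8 in replicate 1 alone and 9 in replicate 2 alone. Besides Jun, these were Nfatc1 (3173 and 3164 bp) and Nfatc2 (2265 and 2524 bp), the calcium-dependent NFAT factors, Irf2 (2836 and 2826 bp) and Irf4, Bhlhe40 (2580 and 2636 bp), a regulator of cytokine production, and Maf (2180 and 2097 bp), which drives interleukin 10 and interleukin 4 genes. In this list 4 of 16 genes at islands of 1500 bp or more were wide, and elsewhere 3 of 19. Among all open genes at such long islands 21.7% were wide, so narrower regions there are not particular to this list. Some early response genes with narrower regions at long islands were picked as examples after their values were seen. Myc had 941 and 1063 bp at an island of 3564 bp, Egr3 949 and 1055 bp at 3517 bp, and Atf3 1509 and 1677 bp at 3781 bp. Together the 2 lists held 20 wide genes among 70 open ones (28.6%), against 6.71% of all open genes. Of 35 open genes in each, 21 lymphoid and 16 activation genes were at islands of 1500 bp or more. There 21.7% of all open genes were wide, so 6.71% alone is a low measure for these lists. Junb had no region that met the distance rule.

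Genes characteristic of regulatory T cells were wide in 6 of 24 open genes (25%), with 7 in each library alone. Satb1, a chromatin organizer needed early in the lineage, had 2909 bp at chr17:51831435-51834343 and 2799 bp in replicate 2. Nrp1, a surface receptor of thymus-derived regulatory T cells, had 2537 and 2823 bp. Lrrc32, which presents latent TGF beta on the cell surface, had 2252 and 2270 bp. Bach2, a repressor that restrains effector differentiation, had 2225 and 2141 bp, and Izumo1r, a folate receptor family member, had 2145 and 2684 bp. Il2ra is the sixth. Of the 24 genes, 21 were at short islands or none, and 4 of these 21 were wide.

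Foxp3 was not a member. It had 3 replicated promoter regions, of which only the widest is described here. That region measured 1377 bp in replicate 1, at chrX:7573807-7575183, and 2533 bp in replicate 2. It touched an island of 1653 bp, with 66.0% GC around the nearest start site. In replicate 1 the stretch of the replicate 2 region held 2 regions, of 524 and 1377 bp, separated by 664 bp. Ctla4, an inhibitory receptor, had 791 and 702 bp, and Ikzf2, which encodes Helios, had 1250 and 1246 bp. Of the regulatory T cell list, 24 of 28 genes were open. Il10, Itgae, Klrg1 and Il1rl1 had no replicated promoter region. Open genes also made up 13534 of 21853 protein-coding genes with a start site, and 29 of 30 T cell receptor complex and signalling genes. Without other T cells to compare, these counts cannot check the label regulatory T cell. In 6 lists of other cell types 30 of 89 genes were open. None of these open genes of other cell types had a wide region, a count too small to set apart from the 6.71% of all open genes.

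Chromatin modifiers were wide in 14 of 46 open genes (30.4%), 14 in replicate 1 alone and 18 in replicate 2 alone. The histone methyltransferase genes Kmt2c and Kmt2a had 2806 and 2855 bp and 2670 and 2569 bp. At islands of 1500 bp or more 9 of 24 were wide, and elsewhere 5 of 22. Regulators of entry into the cell cycle (cyclins D, CDK inhibitors and E2F) were wide in 6 of 22, led by Cdk6, Ccnd2 and E2f3 (3196 and 3044 bp). Of these 22, 4 of 8 at islands of 1500 bp or more were wide, and 2 of 14 elsewhere. Genes of replication and division were wide in 2 of 45 (4.44%), namely Rrm2 (2132 and 2176 bp) and Ccne2 (2088 and 2193 bp).

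Replication-dependent histone genes were wide in 9 of 25 open genes (36.0%), with 10 in replicate 1 alone and 13 in replicate 2 alone. None of the 25 sat at an island of 1500 bp or more. The 9 genes shared 5 regions, so the count is not of independent promoters. Hist1h3c had 2765 and 2957 bp, and Hist1h3a and Hist1h4a shared a region of 2719 and 2747 bp at chr13:23760109-23762827. All 8 wide regions at genes with a Hist symbol held start sites of more than 1 gene, and 5 of them held a whole gene.

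Feedback inhibitors of signalling were wide in 8 of 35 open genes (22.9%), with 9 in replicate 1 alone and 12 in replicate 2 alone. At islands of 1500 bp or more 5 of 15 were wide, and elsewhere 3 of 20. Zfp36l2, which destabilizes messenger RNA, had 3063 and 3160 bp, and Skil, an inhibitor of SMAD signalling, had 2787 and 2854 bp. Chemokine receptor and homing genes were wide in 4 of 19, with a median island length of 0 bp. Cxcr4 had 2487 and 2524 bp, and Itgal, a chain of the integrin LFA-1, had 2257 and 2363 bp beside Ccr4 and Itgb2. JAK, STAT and SOCS genes were wide in 3 of 21, Socs2, Stat6 (2431 and 2426 bp) and Socs4 (2316 and 2373 bp). PI3K, AKT and mTOR genes were wide in 3 of 22, among them Rictor (2205 and 2076 bp) and Akt2 (2009 and 2028 bp). At islands of 1500 bp or more 1 of 5 JAK, STAT and SOCS genes was wide, and elsewhere 2 of 16. For PI3K, AKT and mTOR genes the counts were 2 of 6 and 1 of 16.

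Other lists had few or no wide regions, and most of their genes sat at islands under 1500 bp or none, where 4.10% of all open genes were wide. That class held 28 of the 29 T cell receptor genes below, all 18 costimulatory and coinhibitory genes, 30 of the 31 proteasome genes, 72 of the 75 ribosomal genes (1 wide) and 51 of the 52 oxidative phosphorylation genes (2 wide), so counts of 0 to 2 are near this background. T cell receptor complex and signalling genes were wide in 0 of 29 open genes, with 2 in replicate 1 alone and 1 in replicate 2 alone. Cd247, the zeta chain, had a region of 2411 and 2419 bp whose midpoint lay 1028 bp from the start site, just outside the distance rule. Costimulatory and coinhibitory receptors were wide in 0 of 18, proteasome subunits in 0 of 31, cytosolic ribosomal proteins in 2 of 75 (Rpl7 with 2383 and 2367 bp, Rpl10a with 2103 and 2177 bp), and oxidative phosphorylation genes in 2 of 52 (Ndufb10 with 2161 and 2097 bp, Cox6a1 with 2064 and 2054 bp). The median width of the ribosomal list was 1184 bp, close to the 1200.5 bp of all open genes, taking the smaller width of the 2 libraries.

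The remaining lists held 1 to 4 wide genes each. Cytokine and TNF family receptors were wide in 2 of 30 (6.67%), Ifngr2 (2727 and 3296 bp) and Tgfbr1 (2483 and 2492 bp). T helper cytokine genes were wide in 1 of 12, Ltb (2391 and 2259 bp), and BCL2 family genes in 1 of 16, the death activator Bcl2l11 (2514 and 2501 bp). Housekeeping genes were wide in 2 of 16, Ywhaz (2898 and 2908 bp) and Gapdh (2445 and 2577 bp). Developmental regulators of other lineages were open in 28 of 40 and wide in 4 (14.3%), among them Neurog2 (2574 and 2522 bp), Pax2 (2135 and 2571 bp) and Foxa1 (2068 and 2136 bp), and 3 of the 4 were at islands of 1500 bp or more. Counts this small leave wide margins, and no list was tested.

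Wide regions occurred on every chromosome but Y, which had 4 promoter regions. Their share of promoter regions ran from 4.54% on X (19 of 419) to 8.95% on chromosome 10 (63 of 704). Together the members covered 1.96 Mb, 3.84% of the bases in all regions of replicate 1.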

How the data were processed

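Both libraries were ATAC-seq of regulatory T cells, 1 group of 2 replicates. The authors deposited 1 narrowPeak list per library on mm10, made from that library alone, per the labels and deposited text files, with 68903 regions for replicate 1 and 78262 for replicate 2. Each deposited region has a signal value, a score (not used), and a -log10 p-value and a -log10 q-value, all set by the authors' peak caller. The sources used here do not name the aligner or caller, nor thresholds or transposase offsets. The lists hold no counts, so depth is unknown and no interval is given.

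Regions on chromosomes 1 to 19, X and Y were kept. Width is end minus start, replicates were matched by an overlap of at least 1 bp, and start sites were those of protein-coding transcripts in GENCODE M21. Percentiles rank a region within its own list. Where a gene of the lists had several promoter regions, the widest is given, by the smaller of its widths in both libraries. GC content, CpG and islands were computed from the RefSeq mm10 genome with Python 3.11.15, pandas 2.3.3, numpy 2.4.6 and pysam 0.24.0, and figures were drawn with matplotlib 3.10.9. The scripts were tested on simulated data.

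The members and lists were chosen with earlier results of these data known. Genes named are the 15 widest members, the 3 nearest the minimum on each side, up to 3 widest per list, every wide gene of the lists of regulatory T cell genes and transcription factors, Foxp3, Il2ra, Ctla4, Ikzf2, Bach2 and Satb1, the 5 members lowest and the 5 highest in GC content, and the 5 with the largest width differences. Some genes that this rule names are not reported here. Sequences by rule were up to 8 windows of up to 200 bp, with Arhgef2 shown in place of Zfp827 after its values were seen. Runx3, Foxo1, Ikzf3, Myc, Egr3, Atf3, Junb, Cd247, Itgb2 and the genes of the closing section were named after their values were seen.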

Additional observations from a re-analysis of the deposited data

How the results depend on the processing

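No paired analysis was possible because there is 1 group. Of 80 values recomputed under 14 settings (3 chosen after the data were seen), 54 stayed within the spread between the 2 libraries or, for counts, within 1.5 times. Counts have no order to reverse. No other value reversed its order against narrower regions or all genes, but the width rule largely sets that order for downstream reach. The spread came from the settings without replicate 1 or 2, which are among those judged. It was 0 for CpG density, where only an equal value counted as within it. The width minimum moved the counts most, to 3010 regions and 3362 genes at 1500 bp and to 50 regions and 52 genes at 3000 bp. At these minima 65.7% and 5.71% of the transcription factor genes were wide (24.8% and 0.384% of all genes), 51.6% and 96.0% of wide regions reached over 1 kb downstream, and at 3000 bp median GC was 64.0% and CpG 8.29 per 100 bp. With the midpoint within 500 bp, GC was 66.0%, CpG 8.89 and the transcription factor share 22.4%, and within 2 kb GC was 64.5% and CpG 8.39. Basic transcripts gave 65.5% and 8.69, and windows of 1 kb 60.7% and 6.797 (53.8% and 4.15 in narrower regions). Replicate 2 as the base gave 8.59 CpG and 77.8% reaching downstream. Regions that contain a start site, in place of the midpoint rule, gave 64.6% and 8.39, and leaving out repeat regions gave 8.59 CpG (both chosen after the data were seen). Without replicate 1 or without replicate 2, that is on the widths of the other library alone, there were 1156 and 897 regions, 1280 and 995 genes, GC of 65.1% and 64.8%, CpG of 8.49 in either, transcription factor shares of 35.7% and 30.0%, and downstream shares of 77.7% and 75.3%. A weak stretch that joins or splits neighbouring regions changes width, and without counts the depth behind this cannot be given.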

Other observations

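Gene families that were read from the members' symbols after their values were seen ranged in their share of wide regions. Of all open genes 6.71% were wide, and of those at islands of 1500 bp or more 21.7%. Kmt genes, which encode lysine methyltransferases, were wide in 5 of 8 open genes (Kmt2a, Kmt2c, Kmt2e, Kmt5a and Kmt5b). Klf genes, zinc finger factors that bind GC-rich sites, were wide in 5 of 13 (Klf3, Klf4, Klf10, Klf13 and Klf16), and Hnrnp genes, which encode RNA-binding proteins, in 6 of 20. Zbtb genes, several of which direct lymphocyte lineages, were wide in 9 of 40, while the large Zfp family was wide in 11 of 330 (3.33%). The median longest island was 1764.5 bp for Kmt, 1498 bp for Klf, 1682.5 bp for Hnrnp, 1275 bp for Zbtb and 766 bp for Zfp. Mitochondrial ribosomal protein genes were wide in 3 of 78, and Trim genes in 7 of 46. Near the share of all open genes were Slc genes (16 of 252, 6.35%) and Tmem genes (10 of 185, 5.41%). None of these shares was tested.

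Another 252 regions were wide in both libraries with a midpoint over 1 kb from any protein-coding start site, and 24 of them still contained a start site. Among these 24 were Junb, an AP-1 subunit (3081 bp in replicate 1 and 3114 bp in replicate 2, midpoint 1290 bp from the start site), Foxp1, a forkhead factor of quiescent T cells (2783 and 2986 bp), Coro1a, a regulator of actin in lymphocytes (2248 and 2314 bp), and Arid2, a chromatin remodelling subunit (3895 and 3963 bp). The Cd247 region is of the same kind. The midpoint rule therefore leaves out regions that extend mainly to one side of the start site.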
